A study of Mus musculus with 6 samples.

Results

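The genes described here encode the machinery that copies nuclear DNA and the enzymes that supply its building blocks. They are 41 of the 38124 genes in the table, listed by name from origin licensing, the replicative helicase, the polymerases, the sliding clamp with its loader, deoxynucleotide synthesis and chromatin assembly, and they were grouped into 10 complexes or steps. RNA came from wild-type bone-marrow-derived macrophages of C57BL mice, cells that are grown from marrow precursors in culture. An untreated group of 3 libraries was compared with a group of 3 libraries from macrophages kept for 24 hr with apoptotic thymocytes, at a ratio stated as 1:40, with the thymocytes taken off before RNA extraction. Dexamethasone, a synthetic glucocorticoid hormone, had been used to kill the thymocytes by apoptosis, and no group given living thymocytes or dexamethasone alone was analysed here. The labels call each library a biological replicate and do not say whether each came from its own mouse.

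Replication begins when the origin recognition complex, Cdc6 and Cdt1 load the ring of MCM2-7 proteins onto DNA before S phase. Mcm10, Cdc45 and the GINS complex then turn that ring into a moving helicase, polymerase alpha-primase lays down primers, and polymerases delta and epsilon extend them while tethered to the Pcna clamp. Most of these genes are transcribed in late G1 under control of E2F transcription factors. Macrophages grown from marrow precursors can divide in culture, so such genes are measurable in them. A bulk profile cannot tell apart fewer cycling cells from less RNA per cycling cell.

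Depth was 19315132 to 25933208 mapped reads per library, and a single read on 1 kb of exon equalled 0.0386 to 0.0518 RPKM (the deposited unit, reads scaled to gene length and to mapped reads). The lowest read number behind any tested member in any library was 36. All 8 macrophage marker genes were expressed, 6 of them called lower and 2 higher (Lyz2 and Mertk). These are shares of 75% and 25%, against 46% and 18.8% of all tested genes. Fcgr1 fell from 52.7 ± 2.54 to 7.43 ± 0.401 RPKM (mean ± SD, n = 3, as in the following), Cd14 3.96-fold, Itgam 3.61-fold and Csf1r 1.49-fold, whereas Cd68 and Adgre1 fell 1.11-fold and 1.09-fold and were not called with median-of-ratios scaling (adjusted p = 0.922 and 0.740). The summed level of the list, 15621 to 16354 RPKM in untreated and 20126 to 22468 RPKM in treated libraries, is mostly Lyz2, which rose from 13388 ± 408 to 19418 ± 1128 RPKM (not called with no filter, adjusted p = 0.132). Of 17 thymocyte and T cell markers, 5 (Cd3e, Cd8b1, Rag2, Ptcra and Themis) were listed at 0 in all 6 libraries, and no marker other than Cd4 exceeded 0.0979 RPKM in a treated library. Cd4 stood at 4.32 ± 0.165 in untreated and 2.14 ± 0.155 RPKM in treated libraries, so the summed level of the list was 4.80 to 5.22 RPKM without and 2.21 to 2.61 RPKM with thymocytes. That sum is mostly Cd4 and does not follow each marker. Cd3d was at 0 in untreated and at 0.0291, 0.0332 and 0.0642 RPKM in treated libraries. With no filter 12 markers were tested, of which 4 were called lower and 1 higher (Cd3d), against 27.5% and 11.4% of all genes. The 6 neutrophil markers summed to 6.28 to 6.87 RPKM in untreated and 36.5 to 39.8 RPKM in treated libraries, nearly all of it from S100a8 and S100a9, while Ly6g was listed at 0 throughout. Camp also rose, from 0, 0 and 0.0721 RPKM to 0.770, 0.657 and 0.848 RPKM. Elane went from 0 in untreated libraries to 0.0419, 0.0477 and 0.231 RPKM (not called with no filter, adjusted p = 0.136). Mpo was at most 0.0611 RPKM, with overlapping ranges. The 4 fibroblast markers summed to 2.20 to 2.47 RPKM in untreated and 1.38 to 1.72 RPKM in treated libraries. The summed levels of the other lists were at most 0.596 RPKM in any library for 5 B cell markers, at most 0.233 for 5 dendritic cell markers, and at most 0.0515 in untreated but 0.923 to 1.48 in treated libraries for 6 erythroid markers. The part of such cells in the results below was not tested.

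The promoters of 3 members are shown first, because many members fell together and E2F sites are a known feature of such genes. Promoter windows from RefSeq on GRCm38.p6 (250 bases before to 50 bases after a start site) were found for 34 of the 41 members and for 27025 genes in all. No window was found for Mcm4, Gins1, Gins2, Gins4, Prim2, Pole and Rfc2. An E2F word (TTTCCCGC, TTTCGCGC, TTTGGCGC or TTTGCCGC, on either strand, overlapping matches counted) was present in the windows of 12 of the 34 members, or 35.3%, against 2.60% of all genes and 4.99% of the 7420 tested genes with a window. The CCAAT box (CCAAT, either strand) was present in 64.7% of member windows, against 41.1% of all genes and 43.1% of tested genes. The CHR element (TTTGAA, either strand), which is known from promoters of mitotic genes, was present in 14.7%, against 20.2% and 13.8%. The CHR share of members was thus near that of tested genes. Among members with a window, those with an E2F word had a median log2 change of -0.89 (10 tested), and those without one -0.59 (22 tested). Lower calls were made for all 10 of the former and 21 of the 22 latter, against 46% of all tested genes. Rfc2, which was called higher, and Gins4, which was not called, had no window and are in neither group. Some of the members with a window passed the filter on expression through untreated libraries only, as set out below. Without them the medians were -1.01 (9 genes, 9 lower) and -0.55 (19 genes, 18 lower). Mcm3, Mcm5, Mcm6 and Mcm7 of the MCM ring were among the genes with an E2F word, with log2 changes of -0.77, -1.68, -1.67 and -1.01. The window of Mcm2 held no E2F word, and its log2 change of -1.34 lay within that range. The medians were not tested against each other. A match is a description of the letters in this window and does not show binding. Printed below are the 250 bases before the start, 5′ to 3′ on the gene's strand, of the 2 tested members with the lowest log2 changes among those with an E2F word, Mcm5 (chr8:75109259-75109508, plus strand) and Mcm6 (chr1:128359706-128359955, minus strand), and of Pola2 (chr19:5964207-5964456, minus strand), which held none of the 3 motifs and had the smallest change among the members without any. Capitals mark E2F words.
Mcm5: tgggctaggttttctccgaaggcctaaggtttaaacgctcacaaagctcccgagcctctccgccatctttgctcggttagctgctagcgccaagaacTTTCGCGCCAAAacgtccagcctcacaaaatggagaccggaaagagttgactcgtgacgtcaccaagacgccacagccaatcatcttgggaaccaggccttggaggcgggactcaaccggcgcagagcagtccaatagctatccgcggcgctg
Mcm6: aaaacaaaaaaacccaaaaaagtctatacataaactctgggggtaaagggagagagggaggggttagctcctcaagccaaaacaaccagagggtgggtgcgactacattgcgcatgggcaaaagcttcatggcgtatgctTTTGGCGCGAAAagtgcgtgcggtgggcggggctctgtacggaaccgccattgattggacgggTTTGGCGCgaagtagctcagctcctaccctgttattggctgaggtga
Pola2: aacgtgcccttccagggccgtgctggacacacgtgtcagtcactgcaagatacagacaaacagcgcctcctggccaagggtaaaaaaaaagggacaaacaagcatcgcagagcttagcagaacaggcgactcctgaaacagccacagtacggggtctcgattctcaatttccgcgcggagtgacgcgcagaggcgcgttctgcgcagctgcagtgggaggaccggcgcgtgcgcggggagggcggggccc
In Mcm5, TTTCGCGC begins 153 bases before the start and overlaps a TTTGGCGC on the opposite strand, so that the capitals run together. In Mcm6, TTTGGCGC begins 110 bases before the start and overlaps a TTTCGCGC on the opposite strand, and a further TTTGGCGC lies at 47 bases. That Pola2 shows no capitals says only that these letters are not in its window. The same words were found in Mcm3, Mcm7, Cdt1, Cdc6, Orc1, Gins3, Lig1, Pola1, Pold1 and Rfc3.

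Across the 41 genes, RNA levels were mostly lower in macrophages that had been given apoptotic thymocytes. With no filter on expression, which lets every member be tested, 37 of 41 were called lower, 1 was called higher (Rfc2) and 3 were not called (Cdc45, Gins4 and Pold2), while over all genes above 0 in any library 27.5% of genes were called lower and 11.4% higher (limma on log2(RPKM + 1), Benjamini-Hochberg adjusted p under 0.05, used throughout). All other calls come from a fit in which a gene had to reach 1 RPKM in at least 3 libraries. There 39 members were tested, of which 36 fell, 1 rose and 2 were not called, against 46% of the 10173 tested genes lower and 18.8% higher. Of the 39, 5 (Mcm10, Pola1, Pole, Tyms and Tk1) passed this filter through untreated libraries only, so that their fall was in part set by it. Under a filter on the mean of all 6 libraries, 36 members were tested and 33 of them were lower, against 45.5% of 10011 genes. The treated range lay below the untreated range for 38 of all 41 members, against 49.1% of tested genes. A call as lower with a log2 change below -1 was made for 10 members and for 5.64% of tested genes.

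Log2 changes are differences of log2(RPKM + 1), and the added 1 shrinks them for genes of low level. The median tested gene itself had a log2 change of -0.13, and the median tested member -0.63, which is -0.50 relative to that gene. Median-of-ratios scaling, which removes the general shift, left 35 members lower and 1 higher, with 29.8% of all genes lower (3023 lower and 3064 higher, against 4679 and 1915 without it). Lower calls were also more frequent among long genes, from 35.8% in the shortest of 5 equal length bins of tested genes to 54.9% in the longest. Within each bin the tested members' median lay below that of all genes, at -0.54 against -0.05 in the shortest (8 members) and -0.83 against -0.20 in the longest (6 members). In the longest bin Mcm10, Pola1 and Pole passed the filter through untreated libraries only. Pola2, Rrm1 and Chaf1a were placed there by GENCODE M21 exon lengths of 8294, 11012 and 8854 bases. Those lengths did not give whole read numbers, and the shortest that did were 2872, 3997 and 3308 bases. The part of length in the result was not tested.

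**Figure D1:**
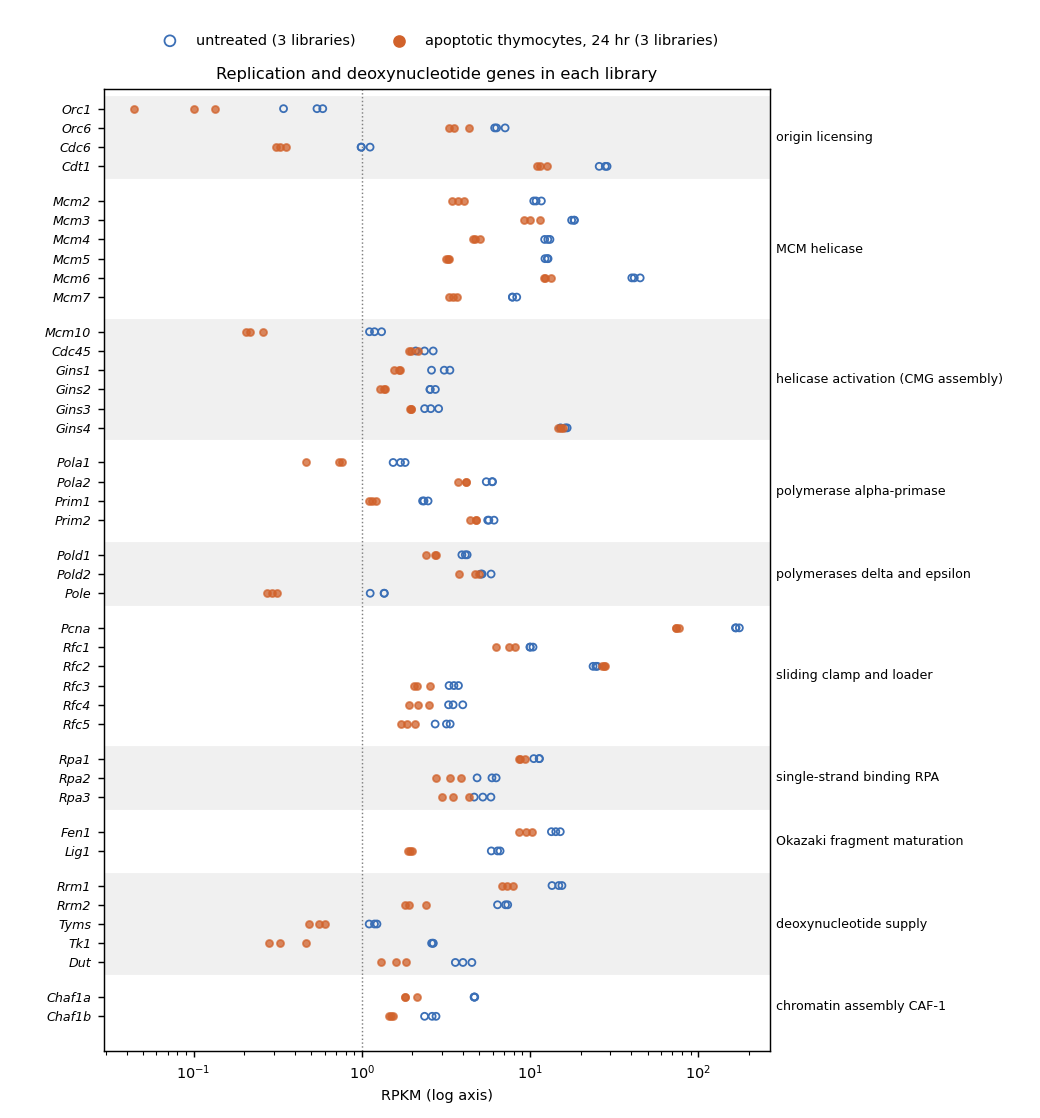
RPKM of the 41 genes in each of the 6 libraries on a log axis, grouped by complex, with untreated libraries as open blue circles and treated libraries as filled orange circles; the dotted line marks 1 RPKM. Treated circles lie to the left of untreated circles for 38 genes, to the right for Rfc2, and among them for Cdc45 and Gins4.

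Origin licensing genes were lower. Cdt1, the factor that brings MCM proteins to origins, stood at 25.8, 28.0 and 28.7 RPKM in untreated replicates 1 to 3 and at 11.0, 11.5 and 12.6 RPKM in treated replicates 1 to 3. The groups did not overlap, and Cdt1 fell 2.35-fold (log2 change -1.17, SE 0.0621, adjusted p = 3.00e-07). Gmnn, whose product geminin holds Cdt1 in check, is not a member and had a log2 change of -0.39 (adjusted p = 0.00502). Its RPKM divided by that of Cdt1 was 0.646 ± 0.0744 in untreated and 1.13 ± 0.0344 in treated libraries. Orc6, the smallest subunit of the origin recognition complex, fell 1.75-fold from 6.53 ± 0.507 to 3.73 ± 0.532 RPKM (adjusted p = 0.000115). It shares 171 exon bases with Vps35 on the opposite strand, with means of 90.4 RPKM in untreated and 83.1 RPKM in treated libraries. The other members of this step, Orc1 and Cdc6, were below the filter of 1 RPKM. Orc1, an ATPase subunit of the origin recognition complex, was at 0.342, 0.541 and 0.586 RPKM in untreated libraries, from 23, 45 and 47 reads, and at 0.0443, 0.101 and 0.134 RPKM in treated libraries, from 4, 8 and 11 reads. Cdc6, the loading ATPase, was at 0.990, 0.992 and 1.12 RPKM in untreated and 0.354, 0.327 and 0.309 RPKM in treated libraries, without overlap. In the fit with no filter both were called lower (adjusted p = 0.00271 for Orc1 and 5.77e-05 for Cdc6).

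All 6 genes of the MCM2-7 ring, the core of the replicative helicase, fell. Their summed level was 101, 109 and 104 RPKM in untreated and 36.1, 37.8 and 40.2 RPKM in treated libraries, a 2.75-fold lower mean. Mcm5 (chromosome 8, 75109528 to 75128439) was at 12.3, 12.8 and 12.7 RPKM in untreated and 3.16, 3.26 and 3.31 RPKM in treated libraries. This 3.88-fold fall (log2 change -1.68, SE 0.0467, adjusted p = 5.03e-09) was the lowest log2 change of the 39 tested members. Mcm6 (chromosome 1, 128331591 to 128359656), the most abundant of the ring genes per length, was at 40.3, 45.2 and 41.7 RPKM and then 12.3, 12.1 and 13.4 RPKM, a 3.37-fold fall (log2 change -1.67, SE 0.0575, adjusted p = 1.72e-08). Its treated libraries lay near the untreated level of Mcm4 and Mcm5. The falls of Mcm2 (2.95-fold, from 11.0 ± 0.594 to 3.74 ± 0.302 RPKM) and Mcm4 (2.66-fold, from 12.7 ± 0.460 to 4.77 ± 0.253 RPKM) were intermediate. Mcm7 fell 2.30-fold from 8.02 ± 0.276 to 3.48 ± 0.208 RPKM, and Mcm3 fell 1.77-fold from 17.7, 18.4 and 18.3 RPKM to 9.26, 9.99 and 11.4 RPKM. Mcm6 divided by the mean of the other 5 ring genes went from 3.39 ± 0.103 to 2.47 ± 0.106. The Mcm7 value is less certain, since annotated exons of Cops6 and Ap4m1 on the opposite strand and 2 microRNA genes on its own strand overlap 557 of its exon bases. The library kit keeps strand, but whether the authors' counting used it is not given in the sources used here.

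Genes that turn the loaded ring into an active helicase were divided. Mcm10, a scaffold for helicase activation, fell 5.31-fold from 1.11, 1.31 and 1.19 RPKM to 0.216, 0.205 and 0.259 RPKM, without overlap (adjusted p = 3.06e-06). Of the GINS subunits, Gins1 fell 1.85-fold, Gins2 1.96-fold and Gins3 1.33-fold from untreated levels of 2.60 to 3.01 RPKM (adjusted p = 0.000102, 9.41e-06 and 0.00385). Gins2 shares 2758 of its 4097 exon bases with Gse1 on the opposite strand, which had a log2 change of -0.26. The Gins4 gene (chromosome 8, 23226610 to 23237668) was at 16.6, 15.2 and 16.2 RPKM in untreated and 14.6, 15.3 and 15.8 RPKM in treated libraries, so that the ranges overlapped. Its log2 change was -0.07 (SE 0.0506, adjusted p = 0.283) and turned to 0.07 with median-of-ratios scaling (adjusted p = 0.251). Cdc45, the helicase cofactor, was at 2.09, 2.36 and 2.66 RPKM and 2.16, 1.91 and 1.96 RPKM, again with overlap (log2 change -0.16, adjusted p = 0.0811). Ufd1 on the opposite strand, with means of 9.91 RPKM in untreated and 9.99 RPKM in treated libraries, shares 209 exon bases with Cdc45. Cdc45 passed as lower without untreated replicate 1 (log2 change -0.22, adjusted p = 0.0338). Gins4 was the most abundant GINS gene per length, at 5.89 ± 0.779 times the mean of the other three in untreated and 9.31 ± 0.169 times in treated libraries.

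Polymerase alpha-primase, which makes the RNA-DNA primers, was lower in all 4 subunit genes. Pola1, the catalytic subunit, fell 2.57-fold from 1.70, 1.81 and 1.53 RPKM to 0.766, 0.732 and 0.463 RPKM (adjusted p = 8.38e-05), with the lowest treated value in replicate 3. The primase genes Prim1 and Prim2 fell 2.06-fold and 1.25-fold, and Pola2, the accessory subunit, fell 1.45-fold from 5.81 ± 0.274 to 4.01 ± 0.265 RPKM (adjusted p = 8.37e-06, 0.00235 and 0.000171). Pole, the catalytic subunit of the leading-strand polymerase epsilon, was at 1.36, 1.12 and 1.36 RPKM in untreated and 0.273, 0.293 and 0.314 RPKM in treated libraries, a 4.36-fold fall (adjusted p = 5.39e-06). Pold1, the catalytic subunit of the lagging-strand polymerase delta, fell 1.56-fold from 4.09 ± 0.149 to 2.63 ± 0.180 RPKM (adjusted p = 7.48e-05). Its partner Pold2 was at 5.19, 5.87 and 5.10 RPKM and 3.78, 4.70 and 4.95 RPKM. The Pold2 call (log2 change -0.23, adjusted p = 0.0467) was lost with no filter (adjusted p = 0.118), with median-of-ratios scaling (0.340), with upper-quartile scaling (0.220), without any untreated replicate (0.0746, 0.159 and 0.0609 for replicates 1 to 3) and without treated replicate 1 (0.117) or 2 (0.0618).

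Pcna, the clamp that tethers polymerases to DNA, was the most abundant member per length. It fell from 167, 176 and 168 RPKM to 74.2, 77.3 and 73.6 RPKM, a 2.27-fold difference (log2 change -1.17, SE 0.0429, adjusted p = 2.60e-08). GENCODE M21 names 2 pseudogenes of Pcna, and reads shared with them could have been assigned in ways not given in the sources used here. The loader that opens the clamp is built from the 5 RFC subunits, and 4 of their genes fell. The large subunit gene Rfc1 fell 1.39-fold from 10.1 ± 0.236 to 7.29 ± 0.909 RPKM, and Rfc3, Rfc4 and Rfc5 fell 1.58-fold, 1.63-fold and 1.65-fold from untreated means of 3.09 to 3.58 RPKM. On the opposite strand, Eif4a2 shares 194 exon bases with Rfc4, and Wsb2 shares 499 with Rfc5. Their untreated means were 40.6 and 28.5 RPKM, and their treated means 29.4 and 30.5 RPKM. Rfc2 (chromosome 5, 134582690 to 134598328) was the member that rose, from 24.6, 25.1 and 23.7 RPKM to 27.5, 27.9 and 26.9 RPKM, without overlap (log2 change 0.16, SE 0.0424, adjusted p = 0.00959). The call was lost without untreated replicate 3 (log2 change 0.14, adjusted p = 0.0550), whereas median-of-ratios scaling gave a log2 change of 0.30 (adjusted p = 0.000206). Rfc2 divided by the mean of Rfc3, Rfc4 and Rfc5 was 7.20 ± 0.0878 in untreated and 13.2 ± 1.65 in treated libraries. Its exons in GENCODE M21, 6303 bases long, share 952 bases with exons of Lat2 on the opposite strand. The shortest length that gave whole read numbers for Rfc2 was 1518 bases, so how much of that overlap was counted is not known. Lat2 itself fell from 171 to 73.5 RPKM (log2 change -1.20). The part of such overlap in the Rfc2 value was not tested. In treated libraries Rfc2 and Gins4 came next after Pcna in level, whereas in untreated libraries Mcm6 and Cdt1 did.

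**Figure D2:**
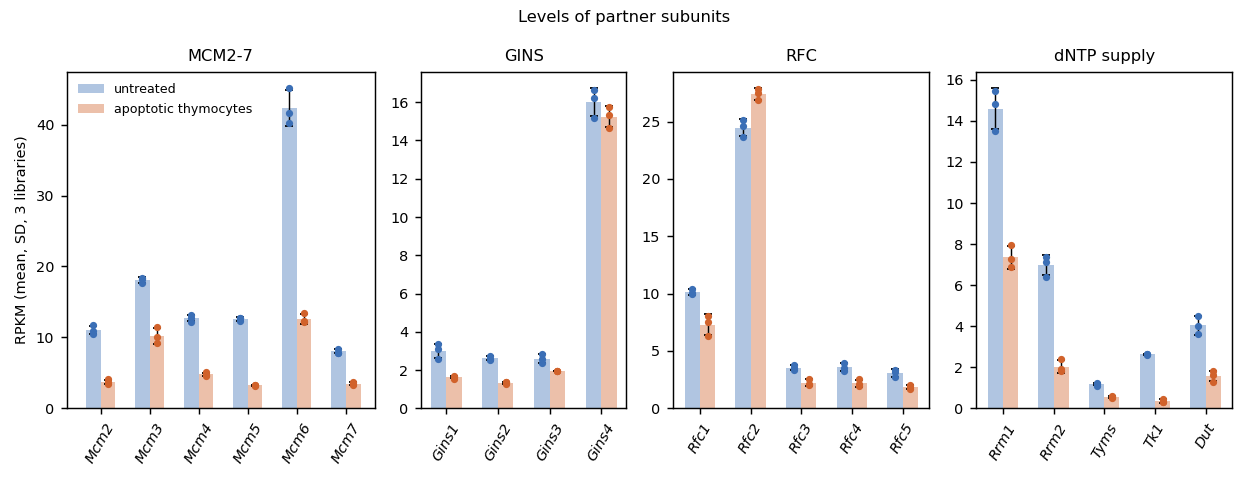
RPKM of the genes of the MCM2-7 ring, GINS, the clamp loader RFC and deoxynucleotide supply in untreated (blue) and treated (orange) libraries; bars are means, points are the 3 libraries, error bars are SD, and each panel has its own axis from 0. Of the most abundant gene in each complex, Rfc2 rises and Gins4 has overlapping groups (its sign turns with scaling) while their partners fall, and Mcm6 falls with the rest of its ring.

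Replication protein A, which coats single-stranded DNA, was lower by small amounts. Rpa1, Rpa2 and Rpa3 fell 1.25-fold, 1.71-fold and 1.46-fold (adjusted p = 0.000951, 0.000834 and 0.00633). Rpa3 was at 5.24, 5.85 and 4.66 RPKM in untreated and 3.46, 4.37 and 2.99 RPKM in treated libraries, the widest SE of the members (0.110), and its highest treated library lay just under its lowest untreated one. The genes that finish lagging-strand fragments fell by different amounts. Lig1, the DNA ligase that seals them, was at 5.88, 6.64 and 6.41 RPKM and 1.89, 1.94 and 1.998 RPKM, a 3.25-fold fall (log2 change -1.31, SE 0.0570, adjusted p = 7.73e-08). Fen1, the nuclease that trims their flaps, fell 1.51-fold from 14.3 ± 0.863 to 9.45 ± 0.847 RPKM (adjusted p = 0.000114). Annotated exons of Tmem258, which rose (log2 change 0.40), and of Gm10143 lie opposite Fen1 and share 2039 of its exon bases.

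Deoxynucleotide supply was lower in all 5 of its genes. Ribonucleotide reductase converts ribonucleotides to deoxyribonucleotides, and its S phase small subunit gene Rrm2 fell 3.44-fold from 6.41, 7.37 and 7.15 RPKM to 1.80, 2.39 and 1.90 RPKM (log2 change -1.40, SE 0.0826, adjusted p = 6.17e-07). The large subunit gene Rrm1 fell less, 1.98-fold from 13.5, 15.5 and 14.8 RPKM to 6.86, 7.27 and 7.97 RPKM (adjusted p = 2.99e-06). Rrm2 per Rrm1 was 0.474, 0.476 and 0.482 in untreated and 0.262, 0.329 and 0.238 in treated libraries, which did not overlap (two-sided exact permutation p = 0.10, the smallest p that 3 against 3 allows, and 0.10 adjusted over 3 comparisons of this kind). The alternative small subunit gene Rrm2b, which is used outside S phase, was not called (log2 change -0.21, adjusted p = 0.0675). Rrm2b per Rrm2 was 0.372 ± 0.0385 in untreated and 1.06 ± 0.269 in treated libraries, again without overlap (two-sided exact permutation p = 0.10, the smallest possible).

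Tk1, the thymidine kinase of S phase, showed the largest ratio of means among the tested members. It was at 2.64, 2.60 and 2.66 RPKM in untreated and 0.282, 0.464 and 0.327 RPKM in treated libraries, 7.36-fold lower, from 265 to 323 reads per untreated and 38 to 55 reads per treated library. With a pseudocount of 0.1 in place of 1 its log2 change was -2.60 instead of -1.42. Tyms, which makes thymidylate, fell 2.14-fold from 1.17 ± 0.0634 to 0.550 ± 0.0597 RPKM (adjusted p = 0.000109), and Dut, which removes dUTP, fell 2.56-fold from 4.03 ± 0.459 to 1.58 ± 0.261 RPKM (adjusted p = 1.59e-05). The chromatin assembly genes Chaf1a and Chaf1b, whose products place histones on new DNA, fell 2.43-fold and 1.73-fold (adjusted p = 9.01e-07 and 6.79e-05). Chaf1a was nearly the same in the untreated libraries, at 4.65, 4.67 and 4.69 RPKM, and was at 1.81, 1.82 and 2.13 RPKM in treated ones. Its exons in GENCODE M21, 8854 bases long, share 4648 bases with Ubxn6 on the opposite strand. The shortest length that gave whole read numbers from the deposited RPKM was 3308 bases. How much of that overlap was counted is therefore not known.

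**Figure D3:**
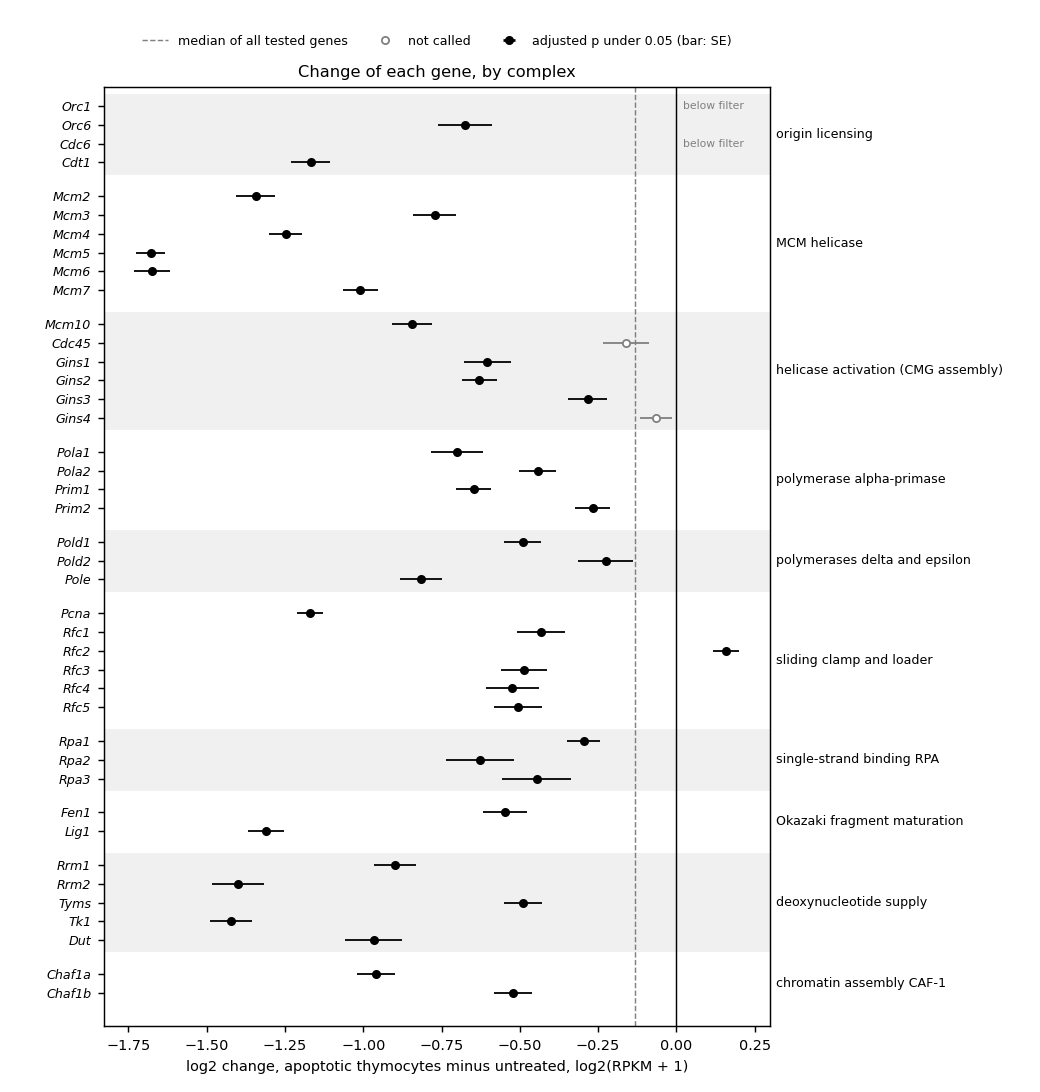
Log2 change (treated minus untreated, log2(RPKM + 1)) of each gene with its SE, grouped by complex; filled points passed an adjusted p under 0.05, open points did not, and the dashed line is the median tested gene at -0.13. The MCM ring, with changes from -1.68 to -0.77, lies farther left than the RPA genes, at -0.63 to -0.30.

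Described by the median log2 change of tested members, the MCM ring stood at -1.30, deoxynucleotide supply at -0.97, lagging-strand maturation at -0.93, licensing at -0.92 (Cdt1 and Orc6 only), CAF-1 at -0.74, polymerase alpha-primase at -0.55, clamp and loader at -0.50, polymerases delta and epsilon at -0.49, RPA at -0.45 and helicase activation at -0.44. These medians rest on 2 to 6 genes each and were not tested against each other. Without the genes that passed the filter through untreated libraries only, helicase activation stood at -0.28, polymerase alpha-primase at -0.44 and polymerases delta and epsilon at -0.36. Level alone did not order the changes. Pcna at 170.0 RPKM and Lig1 at 6.31 RPKM in untreated libraries had log2 changes of -1.17 and -1.31, while Rfc2 at 24.5 and Gins4 at 16.0 RPKM were the least lowered members.

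**Figure D4:**
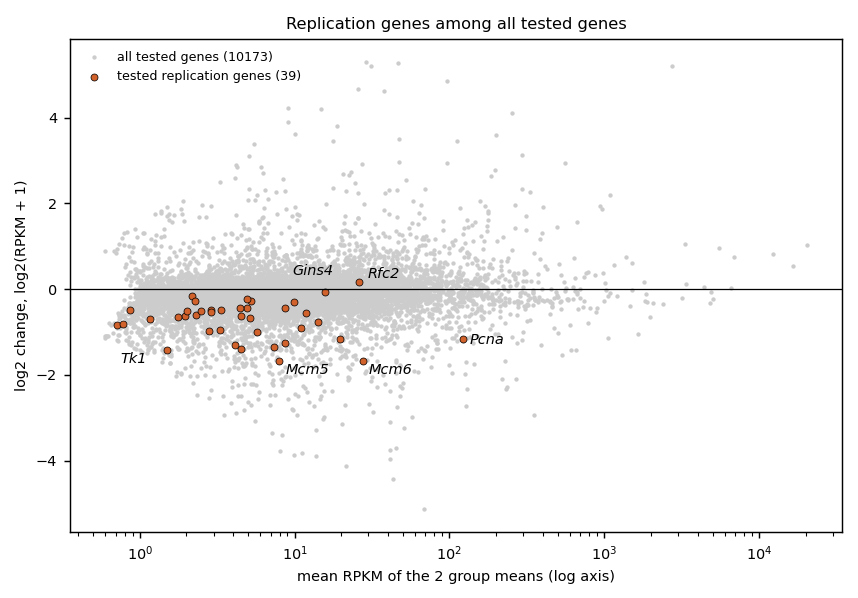
Log2 change against mean RPKM (log axis) for all 10173 tested genes (grey) and the 39 tested replication genes (orange). The replication genes lie below 0 at low and high levels, except Rfc2, and none reaches the lowest changes of the table.

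Further genes of DNA replication that are not members were mostly lower as well, with list medians nearer to 0. As among the members, some passed the filter through untreated libraries only, so that counts over the whole lists with no filter are given beside those of the filtered fit (27.5% of all genes lower and 11.4% higher there). Of 15 other licensing and firing factors, 12 were tested, 11 fell and 1 was not called (Mcmbp), with a median log2 change of -0.27, and with no filter 10 of all 15 were lower. Mcm8 and Cdc7 passed the filter through untreated libraries only. Mcm8, a helicase paralog of the MCM ring, fell from 1.12 ± 0.0663 to 0.393 ± 0.0687 RPKM, Cdc7, the kinase that fires origins, from 1.30 ± 0.0647 to 0.671 ± 0.130 RPKM, and Donson, a helicase assembly factor, from 3.33 ± 0.0452 to 2.39 ± 0.117 RPKM. With median-of-ratios scaling 6 of the 12 were lower. Of 23 tested replisome and fork factors 20 fell and 3 were not called (Pole3, Rnaseh2a and Rnaseh2c), with a median of -0.45. Among them 6 (Timeless, Clspn, Atad5, Uhrf1, Tonsl and Mms22l) passed through untreated libraries only, and 14 of the other 17 fell, with a median of -0.42. With no filter 21 of all 25 were lower. Uhrf1, which recruits the maintenance methyltransferase to new DNA, fell 8.67-fold from 6.89, 7.51 and 6.80 RPKM to 0.733, 0.835 and 0.877 RPKM (log2 change -2.15, SE 0.0603, adjusted p = 5.21e-09). Topoisomerase gene Top2a fell 2.93-fold and the histone chaperone gene Asf1b 2.08-fold.

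Of 12 tested other genes of deoxynucleotide metabolism, 5 fell, 4 rose and 3 were not called, with a median of -0.15. The lower share, 41.7%, was near the 46% of all tested genes, and the higher share was 33.3% against 18.8%. With no filter 6 of all 15 were lower and 4 higher. The salvage kinase gene Dck fell 2.38-fold from 15.5, 15.4 and 15.4 RPKM to 6.41, 6.77 and 6.25 RPKM (adjusted p = 5.05e-08), and the thymidylate kinase gene Dtymk fell 1.34-fold. Samhd1, which breaks down deoxynucleoside triphosphates, rose from 28.7, 28.3 and 28.6 RPKM to 33.3, 32.2 and 31.6 RPKM (log2 change 0.18, adjusted p = 0.00440). The nucleoside diphosphate kinase genes Nme2 and Nme1 and the nucleotide pyrophosphatase gene Dctpp1 rose too (log2 change 0.44, 0.20 and 0.23). The number that rose was 7 over the 3 lists of other replication genes with median-of-ratios scaling, and 2 without untreated replicate 3 or without treated replicate 2.

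Genes of cell cycle control moved mostly downward. Of 12 tested E2F and pocket protein genes 10 fell and 2 rose, shares of 83.3% and 16.7% against 46% and 18.8% of all tested genes. The higher share was thus near that of all tested genes. With no filter 10 of all 13 were lower and 2 higher, and with median-of-ratios scaling 8 were lower and 2 higher. In this and the next list E2f8 and Ccne2 passed the filter through untreated libraries only. E2f1, an activator of replication genes, fell 1.66-fold from 11.0 ± 0.443 to 6.64 ± 0.159 RPKM, and the repressor gene E2f8 fell 5.72-fold from 1.71 ± 0.0374 to 0.2996 ± 0.0366 RPKM. Tfdp2, an E2F partner, fell 1.98-fold. The repressors E2f4 and E2f6, by contrast, rose from 20.4 ± 1.36 to 25.7 ± 1.33 RPKM (adjusted p = 0.00124) and from 9.22 ± 0.570 to 10.5 ± 0.261 RPKM (adjusted p = 0.0206). Of 11 S phase cyclin and G1/S control genes 8 fell, 1 rose (Skp2, a ubiquitin ligase subunit, from 2.75 ± 0.261 to 3.44 ± 0.232 RPKM) and 2 were not called, the same counts as with no filter. The shares of this list were 72.7% lower and 9.09% higher. Ccne2, which encodes a cyclin E that drives entry into S phase, fell 13.2-fold from 1.94, 2.02 and 2.33 RPKM to 0.232, 0.113 and 0.134 RPKM, and cyclin A2 gene Ccna2 fell 2.48-fold. The CDK inhibitor gene Cdkn1a, a brake on S phase entry, fell as well, 2.06-fold from 33.6 ± 0.706 to 16.4 ± 0.525 RPKM.

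Of 12 proliferation genes outside replication, most of them mitotic, 10 fell and 2 were not called (Ccnb2 and Cdc20), with a median of -0.39. Bub1, Foxm1 and Mybl2 passed the filter through untreated libraries only; without them 7 of 9 fell, with a median of -0.27, and with no filter 8 of the 12 were lower. Tpx2, Birc5 and Mybl2 fell 2.15-fold, 1.94-fold and 3.34-fold, and with median-of-ratios scaling 6 of the 12 were lower. Among 11 tested checkpoint genes and p53 targets 5 fell, 3 rose and 3 were not called, shares of 45.5% lower and 27.3% higher against 46% and 18.8% of all tested genes. With no filter 8 of all 14 were lower and 3 higher. The stress-induced gene Trp53inp1 rose 6.23-fold from 6.82 ± 0.405 to 42.5 ± 6.78 RPKM, the checkpoint kinase gene Chek2 1.47-fold and Sesn2, a stress-induced regulator of mTORC1, 1.28-fold, while the cell death gene Bbc3 fell 2.16-fold. Replication of mitochondrial DNA uses a separate set of proteins. Of 6 tested genes of that set 2 fell (Polg, the mitochondrial polymerase, from 10.5 ± 0.0387 to 7.27 ± 0.249 RPKM, and Tfam from 4.61 ± 0.159 to 3.81 ± 0.149 RPKM) and 4 were not called, among them Mgme1 (log2 change -0.10), with a median of -0.06, above that of all tested genes. Median-of-ratios scaling ended the Tfam call (adjusted p = 0.119).

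**Figure D5:**
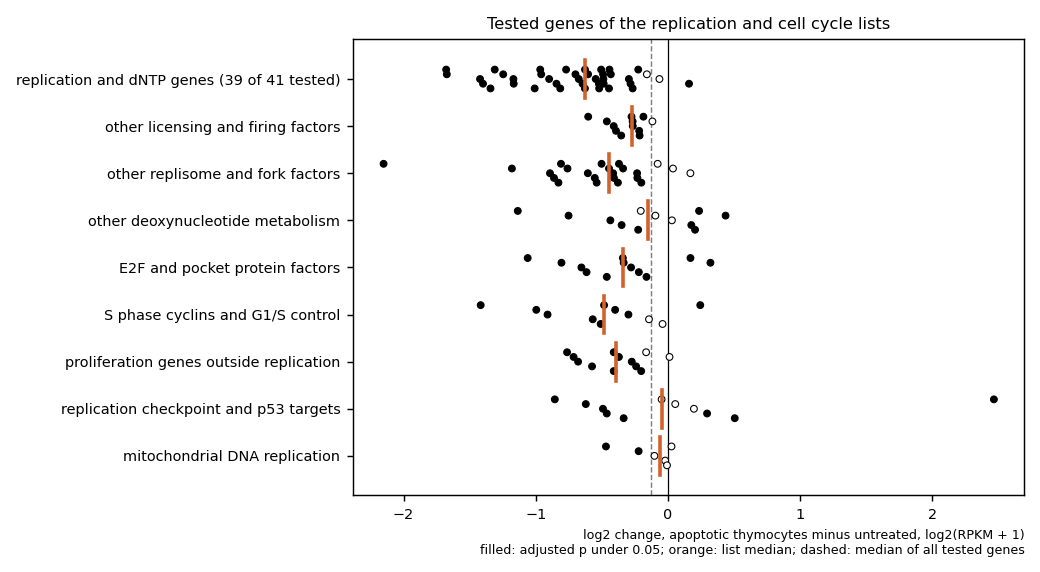
Log2 change of each tested gene in the replication genes described here and in 8 further lists; filled points passed an adjusted p under 0.05, the orange bar is the list's median and the dashed line the median of all tested genes. The medians of the nuclear replication lists lie left of the dashed line, at -0.63, -0.27, -0.45 and -0.15, and those of the checkpoint and mitochondrial lists right of it, at -0.05 and -0.06.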

How the data were processed

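The deposited values are RPKM per gene (reads scaled to gene length and to mapped reads), per the file headers, made by the authors on mouse GRCm38 (mm10) from polyA libraries of a stranded kit, per the labels' protocols; aligner, counter, gene models and use of strand are not given in the sources used here. The 6 columns were matched to samples by name. Reads were recovered from the steps of low RPKM values and GENCODE M21 lengths, for depth and for the read numbers printed here, not for the tests. Of 18414 genes with a length, 9374 gave whole reads in all 6 libraries (within 0.001 reads). A searched length, the shortest that gave whole reads, was needed for 20 of the 41 members, so their read numbers are the smallest that fit. Treated and untreated libraries were compared with limma 3.58.1 (R 4.3.3, intensity trend) on log2(RPKM + 1) over 10173 genes with at least 1 RPKM in at least 3 libraries, with Benjamini-Hochberg adjustment over all of them. The procedure was tested on simulated data. Gene positions are those deposited with the RPKM values, and promoter positions are those of the RefSeq windows. GENCODE M21 served for exon lengths, exon overlaps and pseudogene names. The members and gene lists were chosen with earlier results of these data known. All members are named; from each other list, up to 3 genes with the smallest p and every gene called against its list's majority, except 1 gene that is not reported here. Ratios between genes other than Rrm2 to Rrm1 and Rrm2b to Rrm2 were chosen after seeing the data. Alternatives covered pseudocount, filter, scaling, trend, block and single libraries left out.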

Additional observations from a re-analysis of the deposited data

How the results depend on the processing

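Over 15 alternatives the 39 tested members gave 563 values, of which 551 kept their direction and their side of the threshold, and 35 members did so throughout. The exceptions were Pold2, Cdc45 and Rfc2, whose values stand beside their results, and Gins4, which turned to a log2 change of 0.075 with median-of-ratios scaling and 0.043 with upper-quartile scaling. A filter of 5 RPKM in 3 libraries, which tests fewer genes, left 18 members lower (36 otherwise), 17 of the other replication genes lower (36 otherwise) and 13 of the E2F, cell cycle and checkpoint genes lower (33 otherwise). Median-of-ratios scaling, which removes a shift of -0.13 in the median gene, changed the calls over all genes from 4679 lower and 1915 higher to 3023 and 3064, and the other replication genes called higher from 4 to 7. The summed MCM difference of -66.7 RPKM became -59.3 with that scaling and -61.1 with upper-quartile scaling. Leaving out single libraries gave 35 to 36 members lower and 0 to 1 higher (0 without untreated replicate 3), 4045 to 4712 genes lower and 1630 to 2048 higher, 32 to 38 other replication genes lower and 2 to 5 higher, 29 to 32 E2F, cell cycle and checkpoint genes lower and 5 to 6 higher, and MCM differences of -68.7 to -64.4 RPKM. The difference in Rrm2 per Rrm1 ranged from -0.227 to -0.182, and that in Rrm2b per Rrm2 from 0.536 to 0.783. The filter on the mean of all libraries was chosen after seeing the data.

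Same-numbered libraries did not deviate together more than others (r = 0.20, -0.03 and -0.16 for numbers 1 to 3, across genes). Libraries of unlike number gave r from -0.32 to 0.33. With 3 libraries per group, deviations from the group means depend on each other, so these values cannot decide whether the numbers pair the libraries. With the replicate block 36 members were lower and 1 higher, over all genes 4627 and 1904, among other replication genes 36 and 4, and among E2F, cell cycle and checkpoint genes 32 and 6. Depth limits Orc1, with 4 to 11 reads per treated library.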
